A study of Saccharomyces cerevisiae with 39 samples.

Results

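The genes followed here encode the core of the machinery that starts mRNA synthesis in budding yeast: 12 subunits of RNA polymerase II (Pol II), 14 components of TFIID (the TATA-binding protein TBP, gene SPT15, and 13 TBP-associated factors, TAFs) and 25 subunits of the Mediator complex. The 51 genes were picked by name from the 6420 features of the count table and complex. TAF14, which is also part of several other complexes, was left out of the TAFs. The libraries hold newly made RNA, labelled by a 6 min pulse of 5 mM 4-thiouracil (4tU) before harvest, from cultures in which the general regulatory factor Abf1 was removed from the nucleus. The tagged strain is BY4742 (MATalpha) with tor1-1, a deleted FPR1, RPL13A-FKBP12 as cytoplasmic anchor and Abf1-FRB-yEGFP-3V5. In this strain 7.5 µM rapamycin ties the tagged Abf1 to the anchor, and samples were taken from 5 to 20 min in steps of 5 min, from 30 to 60 min in steps of 10 min, and after 75 and 90 min. The Abf1 0 min group received the DMSO solvent for 90 min instead. The untagged parent (WT) has the same tor1-1, FPR1 and RPL13A alleles but native Abf1, and was taken after 90 min of DMSO (WT 0 min) or 90 min of rapamycin (WT 90 min). Each of the 13 groups had 3 replicates, which the study calls biological, making 39 libraries.

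Pol II is a complex of specific subunits, among them the catalytic pair RPO21 (Rpb1) and RPB2, and of 5 common subunits that also sit in RNA polymerases I and III. TFIID places TBP on core promoters. Some TAFs also serve in the coactivator SAGA. Mediator relays signals from activators to Pol II and is built of head, middle and tail modules on a scaffold subunit, RGR1 (Med14), with a kinase module that can detach. Abf1 binds a defined sequence in many promoters and helps keep them free of nucleosomes.

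The libraries held 3500982 to 11266408 counts in all (median 5467295). The 51 genes held 23 to 27056 counts in any library, and all of them passed the filter on low counts among the 5722 features that did. The mating type in the labels was borne out by the pheromone genes. Summed CPM (counts scaled per library to a common total, with TMM-adjusted library sizes) of 3 alpha-cell genes were 566 to 4070 per library, and those of 4 a-cell genes were at most 14.8. FPR1 had 0 counts in every library, which allows at most 3 counts per library. ABF1 itself, whose protein and not whose RNA is removed, differed in level between the strains. It stood between 310 and 385 CPM in WT and between 666 and 1030 CPM in the tagged strain. At 0 min the tagged libraries already had 666 to 795 CPM. No reference RNA was added, so every change is relative to the labelled RNA of the library. Fewer cells that make a transcript and less of it per cell cannot be told apart. One member, TAF2, overlaps a gene on the other strand (YCR041W, by 70 bases), and since use of strand in the counting is not stated its values are uncertain.

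The first question was which of the 51 genes lose or gain synthesis once Abf1 leaves the nucleus. A group of 11 was called lower at 1 time or more, and the other 40 had log2 fold changes from -0.53 (SRB7) to 0.75 (NUT2) at 90 min, 6 of them with an edgeR adjusted p under 0.01 but only NUT2 past the fold limit too. A gene was called when its edgeR quasi-likelihood adjusted p (Benjamini-Hochberg over all 5722 features) was under 0.01 and its fold change over 1.5. No member was called at 5 min, when 0.507% of all features were lower and 0% higher, and DESeq2 called 0 members. At an unadjusted edgeR p under 0.05 there were 4 members, and over all 5722 features 311 lower and 196 higher. RPB3 alone was lower at 10 min, and RPB3, RPB8, SPT15, TAF4, MED7 and RGR1 were lower at 15 and at 20 min. From 30 to 60 min 11 members were lower, the additions being RPO26, RPB7, RPB10, RPC10 and TAF9, and at 75 and 90 min 10 were lower because TAF9 was no longer called. The only member ever called higher was NUT2, at 90 min.

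Against the whole table these shares were modest at first. RPB3 at 10 min is 1.96% of the members, where 4.02% of all features were lower. The 6 members at 15 min are 11.8%, against 6.85% of all features, and the 6 at 20 min stand against 8.65%. With 11 members the share was 21.6% from 30 to 60 min, while over all features it grew in steps from 9.8% through 10.3% and 10.6% to 11.1%. The 10 members at 75 and at 90 min are 19.6%, against 11.3% of all features at either time. Features called higher grew more common over the series, from 0.245% (10 min) through 0.315% (15 min), 0.629% (20 min), 1.26% (30 min), 1.49% (40 min), 2.66% (50 min), 2.74% (60 min) and 4.74% (75 min) to 6.26% (90 min), and none of these was a member before 90 min. The 51 genes as a whole stayed near 0, and their median log2 fold change was 0.0023 after 20 min and -0.0091 after 90 min, where that over all features was 0.0641 and 0.0396.

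**Figure D1:**
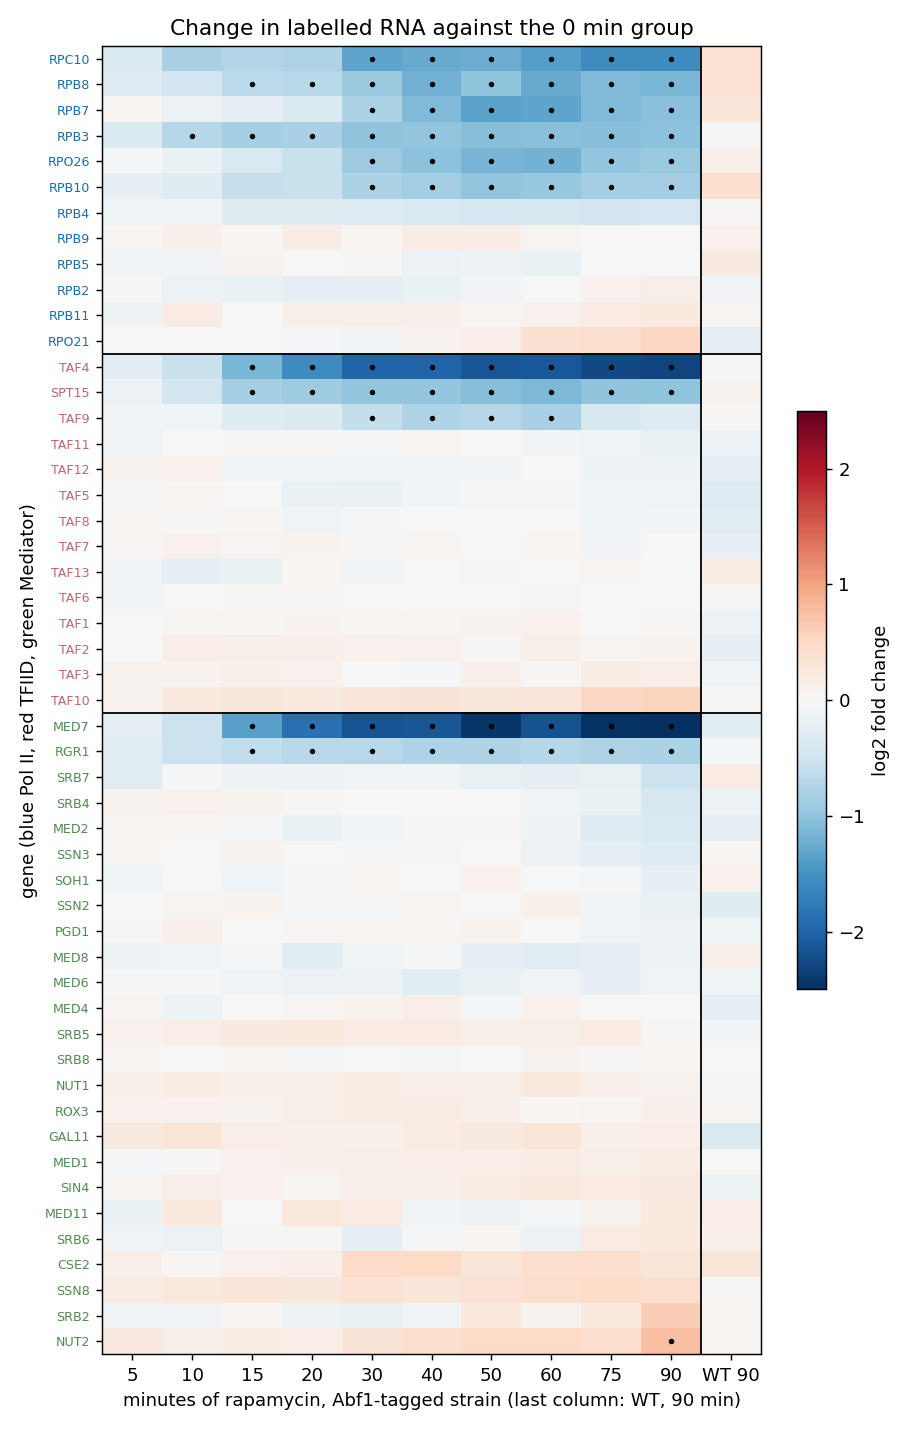
Log2 fold change of each of the 51 genes (rows, ordered within each complex by the 90 min value) against the 0 min group of the same strain, for 10 times of rapamycin in the tagged strain and for WT at 90 min. Dots mark called genes: 6 rows of Pol II, 3 of TFIID and 2 of Mediator carry dots for a decrease, NUT2 carries 1 dot for an increase, and the WT column carries none.

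Of the 11 genes that fell, 9 have a match to the Abf1 consensus within 500 bases upstream of the start codon, on either strand. These matches, from the RefSeq genome sequence of build R64 (sacCer3), are shown because they let the reader compare the sites of genes that fell to different depths. Capitals mark the 13 bases of the consensus, lower case the 8 bases on each side, and each is written 5′ to 3′ on the strand of the match.
MED7, chrXV:70176-70188, minus strand: aaactattATCACGAAATACGaaatgtta
TAF4, chrXIII:275858-275870, minus strand: aaattaagATCATTTATGACGaatattga
RPC10, chrVIII:387063-387075, minus strand: tcagaaaaATCATATTCTACGaccgcagc
RPB8, chrXV:761418-761430, plus strand: gaaaacctATCACGTCTGACGaacatgaa
RPB7, chrIV:1277452-1277464, plus strand: cacagaagATCACTTAATACGtaatcgcg
RPB7, chrIV:1277467-1277479, plus strand: aatacgtaATCGCGTTATACGaattttct
RPB3, chrIX:312704-312716, minus strand: caaacttgGTCATTGCGAACGagttgcga
RPO26, chrXVI:911116-911128, minus strand: aattaaatATCATACTATACGaataatca
RPB10, chrXV:738152-738164, plus strand: acacaaagATCACGTTGAACGaaaagtaa
TAF9, chrXIII:742856-742868, minus strand: gaatgcatGTCACTATGCACGttgtggga
For contrast, TAF5 and TAF8 have matches at a like distance from the start codon but were called at no time.
TAF5, chrII:618683-618695, minus strand: ctgtaaatATCATCTTTTACGggttcaga
TAF8, chrXIII:43736-43748, minus strand: tcaataaaGTCGCTTGAAACGcgactggt

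Gene positions are coding starts and ends from the RefSeq annotation of R64. Of the 5 common subunits of the 3 RNA polymerases, 4 were called lower at every time from 30 min on. This is 80%, where the share of all features was 9.8% at 30 min and 11.3% at 90 min. At 90 min the log2 fold changes of these 4 lay between -0.87 and -1.57. RPC10 (Rpb12, YHR143W-A, chrVIII:387233-387445), a small zinc-binding subunit, had the largest decrease of all Pol II genes at 90 min. Its CPM were 42.4, 35.5 and 46.6 in the 0 min replicates, 21.5, 34.4 and 16.4 at 20 min and 12.5, 11.1 and 18.7 at 90 min. All replicates at 90 min lay below every 0 min replicate, whereas at 20 min the second replicate came within about 1 CPM of the lowest 0 min value. The log2 fold change was -1.57 ± 0.24 (SE) at 90 min (adjusted p = 3.1e-06 by edgeR). At 10 and 20 min RPC10 was not called (-0.80, adjusted p = 0.016, and -0.78, adjusted p = 0.013), but with the replicate number as a block it was (adjusted p = 0.00897 and 0.00875), which makes 2 members lower at 10 min in place of 1. Without 0 min replicate 2 it was called at both times (-0.95 and -0.93), as it was at 10 min without 10 min replicate 3 (-1.06), at 15 min without 15 min replicate 2 (-0.95) and at 20 min without 20 min replicate 2 (-1.13).

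RPB8 (YOR224C, chrXV:760825-761265), a small subunit, went from 50.7, 59.0 and 50.5 CPM to 27.8, 41.8 and 28.8 at 20 min and 24.3, 26.9 and 21.3 at 90 min. The groups did not overlap at either time, and the difference was -0.70 ± 0.18 at 20 min (edgeR adjusted p = 0.0039) and -1.14 ± 0.18 at 90 min (adjusted p = 7.7e-06). The early calls were near the threshold, while the size of the decrease held with 1 library left out (-0.63 to -0.76 at 15 min and -0.59 to -0.92 at 20 min). At 20 min the call was lost without 20 min replicate 1 (adjusted p = 0.0386), without 20 min replicate 3 (0.0332), without 0 min replicate 2 (0.016) and in a fit of only the libraries compared (-0.73, adjusted p = 0.0173). At 15 min it was lost without any 1 of the 15 min replicates (adjusted p = 0.0395, 0.0422 and 0.0119), without 0 min replicate 2 (0.0287) and with total counts as library sizes (0.0116). At 50 min it was lost in the fit of only the libraries compared (0.0319).

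RPO26 (Rpb6, YPR187W, chrXVI:911257-911800), a subunit of the polymerase core, had 59.7, 60.6 and 63.2 CPM at 0 min and 32.0, 27.3 and 36.9 at 90 min, with no overlap. RPB10 (YOR210W, chrXV:738320-738532), a small zinc-binding subunit, had 36.3, 43.1 and 36.8 CPM at 0 min and 19.7, 24.0 and 19.6 at 90 min, again with no overlap. The log2 fold changes at 90 min were -0.94 ± 0.14 (edgeR adjusted p = 3.8e-06) for RPO26 and -0.87 ± 0.14 (5.8e-06) for RPB10. At 20 min both were below every 0 min replicate, at -0.55 and -0.56, yet under the 1.5-fold limit. Leaving out 1 library put RPO26 past it at 20 min in 3 of 6 fits (without 0 min replicates 1 or 2 or 20 min replicate 2, -0.60 to -0.62) and RPB10 in 3 of 6 (without 0 min replicates 1 or 3 or 20 min replicate 2, -0.64 to -0.71). At 15 min RPB10 (-0.58) was called without 0 min replicate 1 (-0.68), 0 min replicate 3 (-0.66) or 15 min replicate 3 (-0.64). The common subunit that was not called, RPB5, is named after its values were seen. It had 84.7, 96.1 and 74.9 CPM at 0 min and 79.7, 84.7 and 93.3 at 90 min. These ranges overlap (log2 fold change 0.01 ± 0.11).

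Of the 7 subunits specific to Pol II, 2 were called lower, both at every time from 30 min on. This is 28.6%, against 9.8% of all features at 30 min and 11.3% at 90 min. RPB3 (YIL021W, chrIX:312905-313861), part of the assembly platform of the polymerase, was the first member called. Its CPM were 150, 141 and 146 at 0 min, 86.8, 84.8 and 95.9 at 10 min and 73.8, 69.4 and 72.0 at 90 min. All replicates at 10 min were already below every 0 min replicate and most of the fall had taken place by then. The log2 fold change was -0.70 ± 0.08 at 10 min (edgeR adjusted p = 5.2e-08) and -1.02 ± 0.08 at 90 min (5.3e-12), and it was called at 10 min under every alternative and with every library left out.

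RPB7 (YDR404C, chrIV:1276654-1277169) forms with Rpb4 the stalk of the enzyme. It started later than RPB3, with 67.9, 84.9 and 78.4 CPM at 0 min, 60.7, 67.0 and 51.8 at 20 min and 36.0, 37.1 and 34.2 at 40 min. The 20 min values were just under the 0 min ones, and the 40 min values were well below both groups. Against 0 min the log2 fold change was -0.36 ± 0.14 at 20 min (edgeR adjusted p = 0.083) and -1.11 ± 0.14 at 40 min (1.6e-07), reaching -1.33 at 50 min. A contrast of 40 with 20 min, added after these time courses had been seen, found RPB7 lower by -0.74 ± 0.14 (adjusted p = 0.0024). It was the 1 member called there, or 1.96%, against 0.472% of all features lower and 0.035% higher. That call was lost without 20 min replicates 1 or 2 (adjusted p = 0.0108 and 0.0294), without any 1 of the 40 min replicates (0.0129, 0.0123 and 0.0226) and in a fit of only the libraries compared (0.111), with log2 fold changes of -0.65 to -0.77 in these fits.

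The other 5 specific subunits were not called at any time. RPB2, which forms the active cleft with Rpb1, had 903, 1033 and 1011 CPM at 0 min, 859, 745 and 896 at 20 min and 1073, 1022 and 1151 at 90 min. Its 20 min replicates all lay below the 0 min ones (log2 fold change -0.24 ± 0.07, adjusted p = 0.026) and its 90 min replicates overlapped them (0.14 ± 0.07, adjusted p = 0.15). RPB9, which takes part in start site choice and fidelity, had the highest log2 fold change of Pol II genes at 20 min, 0.18 ± 0.14, with overlapping groups. RPB4, named after its values were seen, is the partner of RPB7 in the stalk. It had 103, 121 and 90.3 CPM at 0 min and 75.2, 82.6 and 72.6 at 90 min, without overlap, and a log2 fold change of -0.45 ± 0.11 (edgeR adjusted p = 0.0024) that is under the fold limit. Without 0 min replicate 3 it was called lower at 75 and 90 min (-0.60 and -0.59, adjusted p = 0.000143 and 0.000204).

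**Figure D2:**
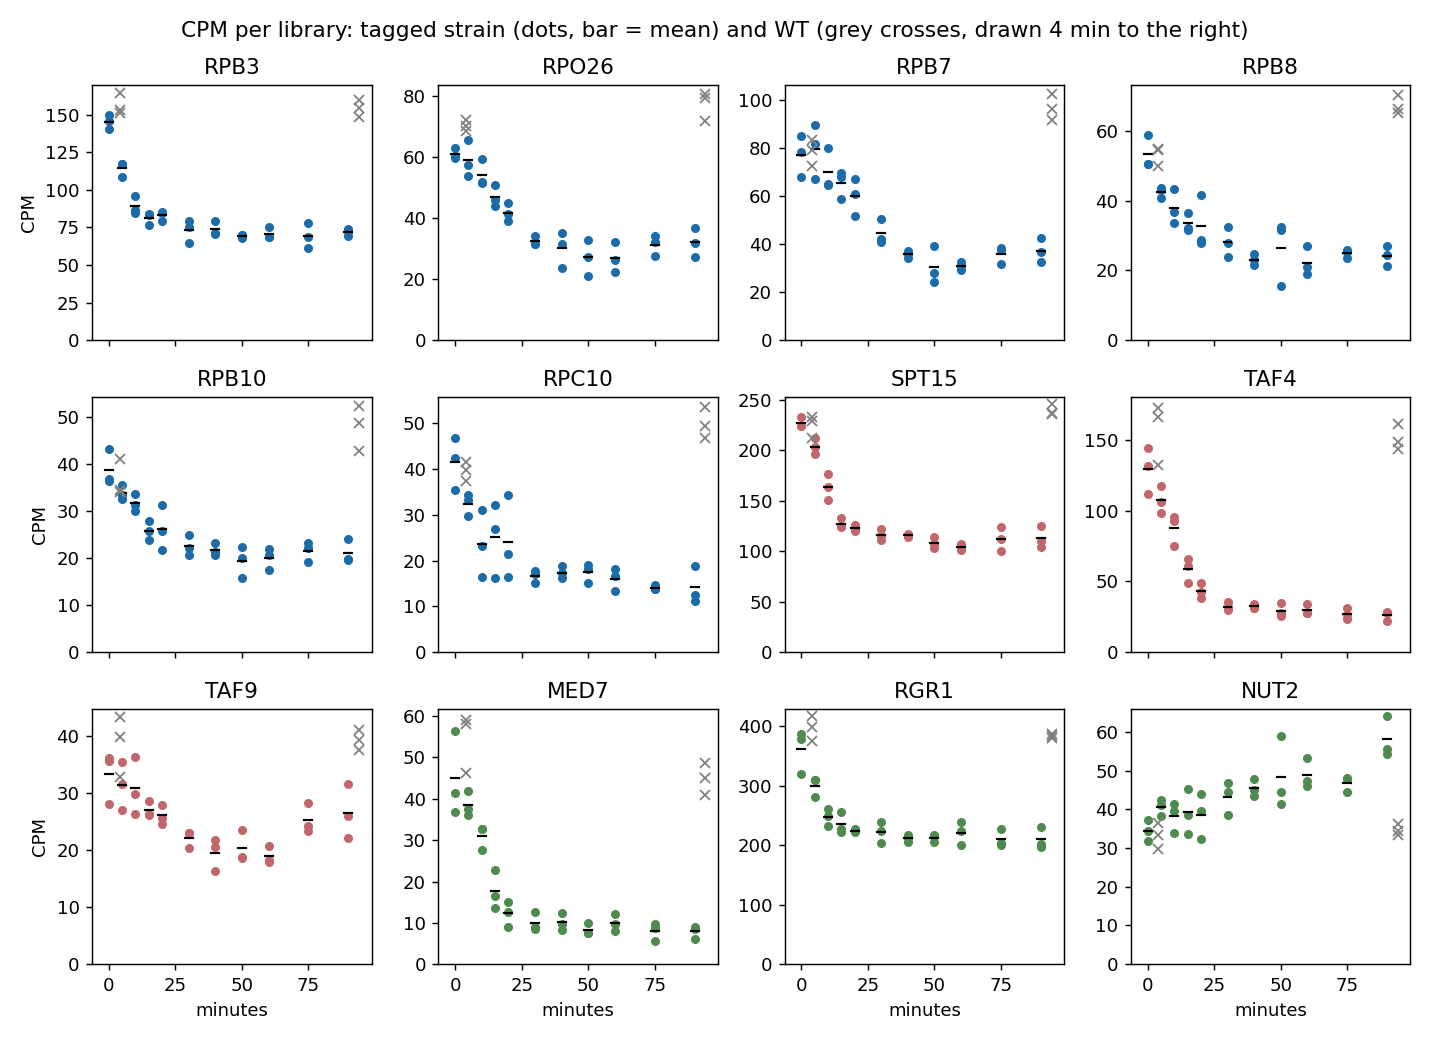
CPM in every library (y axes, from 0) against minutes of rapamycin for the 11 genes called lower at 1 time or more and for NUT2; dots are tagged replicates coloured by complex (blue Pol II, red TFIID, green Mediator), bars their means (n = 3), and grey crosses WT libraries at 0 and 90 min. RPB3, SPT15 and RGR1 fell mostly in the first 15 min and by less after that, RPB7 and RPO26 fell until 50 to 60 min, TAF9 fell and came part of the way back, and NUT2 rose.

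In TFIID, TBP and 2 of 13 TAFs were called lower at 1 time or more. The share of the 14 genes was 14.3% at 15 and 20 min, against 6.85% and 8.65% of all features. From 30 to 60 min it was 21.4%, against 9.8% to 11.1%. At 75 and 90 min it was 14.3% again, near the 11.3% of all features. Of the 8 TAFs found in TFIID only, 12.5% were lower at 90 min. SPT15 (YER148W, chrV:465303-466025) encodes TBP, which is needed by all 3 RNA polymerases. Its CPM were 233, 224 and 224 at 0 min, 151, 164 and 177 at 10 min, 120, 122 and 126 at 20 min and 104, 125 and 111 at 90 min. All replicates from 5 min on were below every 0 min replicate. A log2 fold change of -0.47 ± 0.07 at 10 min had an edgeR adjusted p of 1.3e-05 but was under the fold limit, and it was -0.88 ± 0.07 at 20 min (adjusted p = 1.6e-11) and -1.003 ± 0.07 at 90 min (8.2e-13).

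TAF4 (YMR005W, chrXIII:276045-277211) was by far the most changed TAF. This subunit carries a histone fold, pairs with Taf12 and is found in TFIID but not in SAGA. It had 145, 112 and 131 CPM at 0 min, 38.6, 49.1 and 42.7 at 20 min and 27.8, 28.6 and 22.2 at 90 min. No replicate at 10 min or later reached the 0 min range. On the log2 scale TAF4 changed by -1.57 ± 0.14 at 20 min (edgeR adjusted p = 1.3e-10) and -2.30 ± 0.15 at 90 min (5.9e-14), a level 4.92-fold lower. The other 7 TAFs found in TFIID only were not called, and their log2 fold changes at 90 min lay between -0.18 (TAF11) and 0.17 (TAF3), both named after their values were seen. At 10 min TAF4 was under the fold limit (-0.55), but it was called without 10 min replicate 2 (-0.62), 0 min replicate 2 (-0.70) or 0 min replicate 3 (-0.59).

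TAF9 (YMR236W, chrXIII:742971-743444), a histone-fold subunit of both TFIID and SAGA, showed a passing decrease. Its CPM were 35.6, 36.2 and 28.1 at 0 min, 20.4, 23.0 and 22.9 at 30 min, 17.9, 18.2 and 20.8 at 60 min and 22.1, 31.5 and 25.9 at 90 min. The 30 and 60 min replicates were all below the 0 min group, and those at 90 min overlapped it. The log2 fold change was -0.59 ± 0.15 at 30 min (edgeR adjusted p = 0.003), -0.81 ± 0.15 at 60 min (5.2e-05) and -0.32 ± 0.15 at 90 min (0.083). A direct contrast of 90 with 60 min, added after the time courses had been seen, gave 0.49 ± 0.15 (adjusted p = 0.06), so the return was not called. In that contrast 0 members were called, by edgeR or by DESeq2, while 0.0874% of all features were called lower and 0.14% higher. At an unadjusted edgeR p under 0.05 there were 7 members, and over all features 416 lower and 562 higher. The call at 30 min was lost without 0 min replicate 1 (-0.58), without 0 min replicate 2 (-0.56) and without 30 min replicate 1 (-0.58), and in a fit of only the libraries compared it was lost at 30, 40 and 50 min (adjusted p = 0.0343, 0.014 and 0.0309) with log2 fold changes of -0.62, -0.80 and -0.74.

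The other 4 TAFs shared with SAGA were not called. TAF10, one of them, had the highest log2 fold changes in TFIID at 20 and at 90 min. It had 40.4, 38.9 and 37.2 CPM at 0 min and 62.7, 53.4 and 54.7 at 90 min, all above the 0 min values, for a log2 fold change of 0.55 ± 0.15 (edgeR adjusted p = 0.0039) that is under the fold limit.

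In Mediator 2 of 25 genes were called lower at every time from 15 min on, or 8%, where the share of all features went from 6.85% at 15 min and 8.65% at 20 min to 11.3% at 90 min. The 7 head, 5 tail and 4 kinase-module genes were called at no time. MED7 (YOL135C, chrXV:69376-70044), a middle-module subunit that pairs with Med21, had the largest decrease of all 51 genes. Its CPM were 56.5, 36.9 and 41.4 at 0 min, 27.5, 32.7 and 32.6 at 10 min, 12.6, 15.1 and 9.06 at 20 min and 6.15, 9.04 and 8.64 at 90 min. The 10 min replicates were already below all 0 min replicates and those at 90 min were a small remainder. MED7 thus had a log2 fold change of -1.86 ± 0.22 at 20 min (edgeR adjusted p = 4.3e-08) and -2.496 ± 0.24 at 90 min (3.4e-10), a level 5.64-fold lower.

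RGR1 (Med14, YLR071C, chrXII:275378-278626), the scaffold that holds the modules together, fell early and by less. It had 378, 320 and 386 CPM at 0 min, 262, 249 and 232 at 10 min, 225, 222 and 227 at 20 min and 230, 197 and 202 at 90 min. No replicate overlapped the 0 min group from 5 min on, and the level hardly moved after 20 min. The log2 fold change was -0.55 ± 0.08 at 10 min (edgeR adjusted p = 8.5e-06, under the fold limit), -0.68 ± 0.08 at 20 min (4.6e-08) and -0.78 ± 0.08 at 90 min (2.5e-09). At 15 min its call (-0.62) was lost without 15 min replicate 2 (-0.58), and at 10 min one was gained without 10 min replicate 1 (-0.64) or 0 min replicate 2 (-0.67).

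SRB2 (Med20), a head subunit with the lowest level of the 51 genes, had 8.85, 8.32 and 8.08 CPM at 0 min, 7.18, 7.0 and 9.06 at 20 min and 11.8, 15.6 and 11.2 at 90 min. The 20 min values overlapped the 0 min ones (log2 fold change -0.12 ± 0.21) and the 90 min values lay above them (0.62 ± 0.21, edgeR adjusted p = 0.021), which did not pass the test. SSN8, the cyclin C of the kinase module, was the highest Mediator gene at 20 min (0.28 ± 0.09, adjusted p = 0.038). Per 1 kb of coding sequence SRB2 stood at 13.3 ± 0.62 CPM (SD, n = 3) at 0 min, the next gene, MED11, named after its values were seen, at 28.1 ± 3.66, and RPO21, SPT15 and RPB2 led the order with 460 ± 23.2, 314 ± 7.02 and 267 ± 19.0. Of the 11 genes that fell, 9 stood at 110.8 or more, among them SPT15 and RPC10 (195 ± 26.5). The others were TAF9 at 70.2 ± 9.53 and MED7 at 67.2 ± 15.3. The lowest of the 11, MED7, came next above the 13 lowest genes of this order. That place was read off after the values were seen, and no link between level and decrease was tested. The counted features were extended to mapped transcription starts, so division by coding length can overstate short genes such as RPC10. The order is therefore approximate.

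Increases were few and late. NUT2 (Med10, YPR168W, chrXVI:878076-878549), an essential middle-module subunit, had 37.2, 31.8 and 34.3 CPM at 0 min and 54.3, 64.1 and 55.6 at 90 min, with no overlap. Its log2 fold change was 0.75 ± 0.13 (edgeR adjusted p = 1.9e-05). This 1 member is 1.96% of 51, against the 6.26% of all features called higher at 90 min. RPO21 (Rpb1, YDL140C, chrIV:205360-210561), the largest and catalytic subunit, had 2352, 2299 and 2530 CPM at 0 min, 2474, 1878 and 2545 at 20 min and 3503, 3032 and 3704 at 90 min. All 90 min values were above the 0 min range, while the 20 min values overlapped it. Its log2 fold change of 0.51 ± 0.10 at 90 min had an adjusted p of 0.00013 and was under the fold limit. The common subunits RPC10, RPB8, RPO26 and RPB10 and the specific subunits RPB3 and RPB7 thus had log2 fold changes of -0.87 or below in the same libraries in which RPO21 had 0.51.

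The next question was whether rapamycin alone, without the tag, moved these genes. In WT 0 members were called in either direction, as were 0% of all features, both by edgeR and by DESeq2. At an unadjusted p under 0.05 the edgeR test had 8 of the 51 genes, and over all features 280 lower and 224 higher. This test takes its spread from all 39 libraries, and WT replicates were closer to each other (chi-square per degree of freedom 2.02 to 4.21) than tagged ones (6.99 to 44.2). A fit of only the WT libraries again called 0 members, while 7 features were called lower and 26 higher. In that edgeR fit 20 members had an unadjusted p under 0.05, and the number over all features at that level was not counted. The 5 common subunits all had positive log2 fold changes in WT, from 0.14 to 0.39, and 4 of them had WT 90 min replicates above all WT 0 min replicates. RPB10, for one, had 41.0, 34.4 and 34.0 CPM in WT at 0 min and 42.7, 52.3 and 48.5 at 90 min, which did not pass the test (0.39 ± 0.13, adjusted p = 0.44). Groups without overlap were found in both directions in WT. Of the 51 genes 8 lay wholly above at 90 min (5 of Pol II, 2 of TFIID, 1 of Mediator). Another 11 lay wholly below (2 of Pol II, 4 of TFIID, 5 of Mediator). The share over all features was not counted. Between the strains before depletion, 0 members were called, and DESeq2 called 0. At an unadjusted edgeR p under 0.05 there were 2 members, and over all features 398 lower and 360 higher. Of all features 0.28% were called lower in the tagged strain and 0.245% higher, which is 16 against 14 features. With total counts as library sizes that split was 10 against 19.

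The difference between the strains in their change over 90 min (interaction) was called for 12 members. It was negative for 10, or 19.6%, against 8.83% of all features, and positive for 2, or 3.92%, against 2.81% of all features. The 10 were the genes that were lower at 90 min. The interaction was -2.24 ± 0.20 for TAF4 (edgeR adjusted p = 1.9e-10), -2.22 ± 0.31 for MED7 (1.5e-06) and -1.90 ± 0.32 for RPC10 (3e-05). Of the 10, RGR1 had the smallest, at -0.73 ± 0.11 (8.3e-06). The positive ones were RPO21, 0.73 ± 0.14 (0.00019), and NUT2, 0.69 ± 0.18 (0.0054). RPO21 went down in WT, from 2413, 2326 and 2365 CPM to 2059, 2022 and 2013, with no overlap between these WT groups. The NUT2 interaction was lost without either of replicates 1 and 2 of WT 0 min (adjusted p = 0.0222 and 0.0129), replicates 1 and 2 of WT 90 min (0.0134 and 0.0161), any replicate of Abf1 90 min (0.0107, 0.0357 and 0.0102) or replicates 2 and 3 of Abf1 0 min (0.0307 and 0.0187), and in a fit of only the 4 groups compared (0.0101). Its size in these fits was 0.58 to 0.69. That last fit called SRB7, named after its values were seen, lower by interaction (-0.79, adjusted p = 0.00559), and leaving out Abf1 0 min replicate 3 did so for RPB4 (-0.60, 0.00556).

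**Figure D3:**
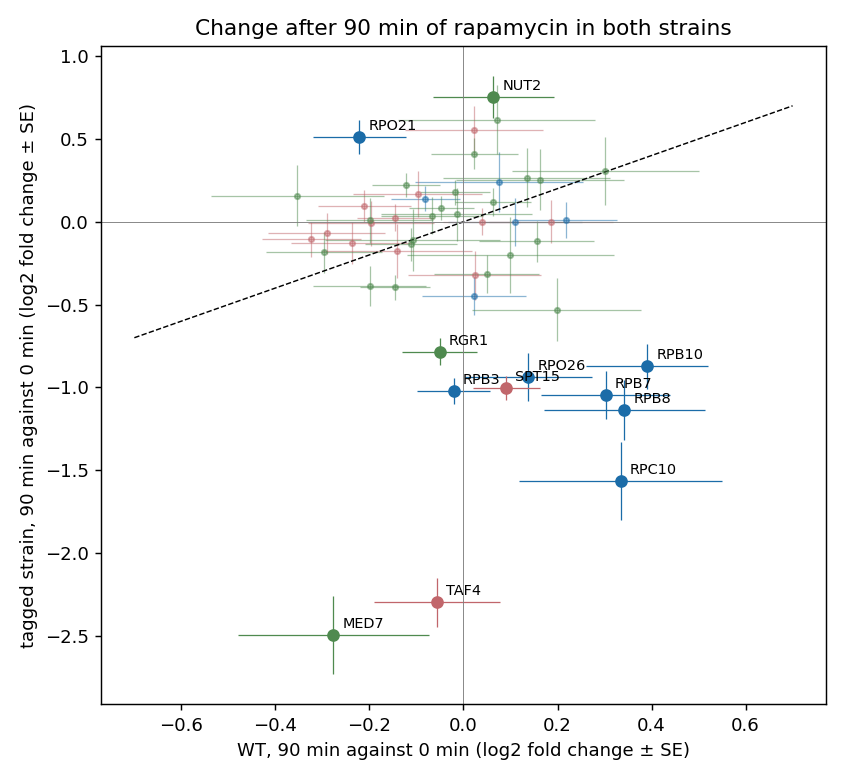
Log2 fold change at 90 min against 0 min in the tagged strain (y axis) and in WT (x axis) for the 51 genes, with SE bars (blue Pol II, red TFIID, green Mediator); the dashed line marks equal change. The 12 named genes passed the test of the difference between strains, with 10 below the line, MED7 and TAF4 farthest, and RPO21 and NUT2 above it.

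How fast the genes fell was estimated with an exponential decay to a final level, fitted to counts scaled to the median library total in the 33 tagged libraries. All 6 members called lower at both 20 and 30 min gave reliable fits. Their time constants, the time in which the difference to the final level shrinks to 1/e, had a median of 11.8 min. RGR1 and RPB3 were fastest, with rates of 0.135 ± 0.0186 and 0.128 ± 0.0124 per min (SE) and time constants of 7.39 and 7.83 min. SPT15 followed at 0.0935 ± 0.00818 per min (10.7 min). MED7, TAF4 and RPB8 had rates of 0.0776 ± 0.00997, 0.0739 ± 0.00651 and 0.0723 ± 0.0155 per min, which lie within each other's errors. Speed and depth were not ordered alike: the fitted final level was 57.9% of the start for RGR1 and 48.0% for RPB3, but 15.8% for MED7 and 18.7% for TAF4. The other 5 genes that fell, fitted as an addition after seeing the data, included the slowest, RPB7 at 0.0371 ± 0.00921 per min (26.9 min) and RPO26 at 0.0503 ± 0.00975 per min (19.9 min). The labelling pulse of 6 min is close to the shortest time constants.

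The Abf1 consensus was found within 500 bases upstream of the start codon in 15 of the 51 genes (29.4%), and in 1089 of 6002 protein-coding genes (18.1%). Among the 11 genes that fell it was found in 9 (81.8%), and among the 40 others in 6 (15%). Over the whole table, 421 of the 477 tested genes called lower at both 20 and 30 min (88.3%) held a match. By complex, matches stood at 8 of 12 Pol II genes, 5 of 14 TFIID genes and 2 of 25 Mediator genes. SPT15 and RGR1 fell with no match in this window. A match is a sequence only, and binding by Abf1 was not read here. The study assigned measured binding peaks by their distance from the transcription start, not from the start codon. RPB7 has a pair of matches, printed above, separated by 2 bases.

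Distances from match to start codon ran from 102 to 297 bases at the genes that fell (median 156) and from 159 to 417 at the 6 that were not called lower (median 271). RPB2, TAF12 and SRB2 have the most distant ones, 380, 342 and 417 bases away. The study places its most dynamic Abf1 site in the promoter shared by SRB2 and its divergent neighbour NCP1. TAF5 and TAF8, whose matches lie at 159 and 160 bases as do several of those that fell, had log2 fold changes at 30 min of -0.17 and -0.04. RPB4, with its match at 200 bases, had -0.32. No test was made of these distances.

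**Figure D4:**
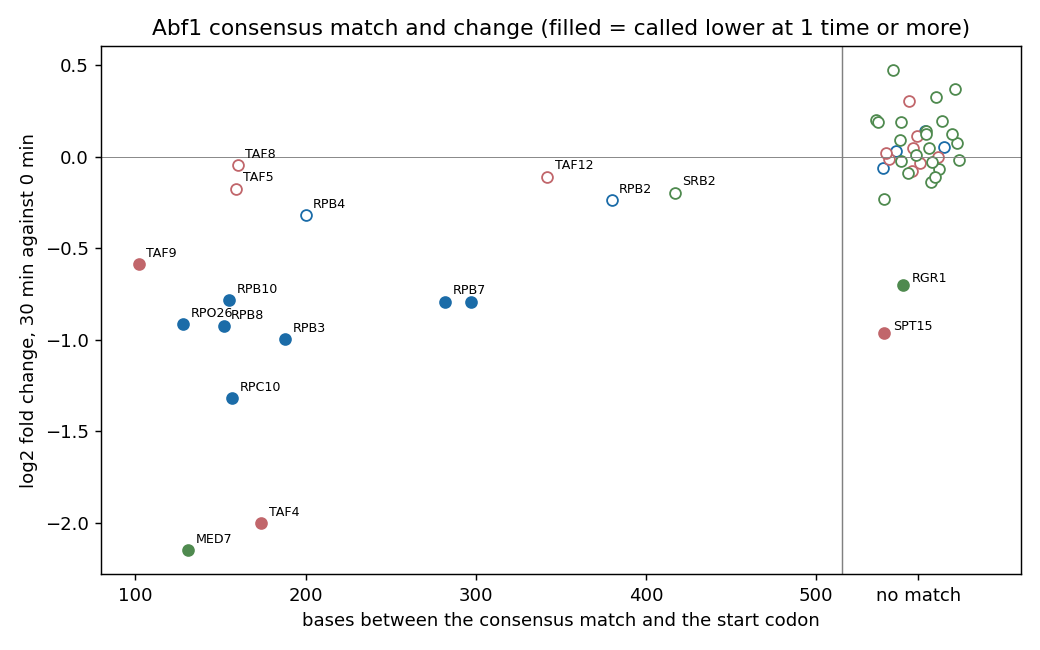
Log2 fold change at 30 min against 0 min (y axis) by the number of bases between the Abf1 consensus match and the start codon (x axis), with genes without a match drawn at the right, spread sideways at random (blue Pol II, red TFIID, green Mediator; filled if called lower at 1 time or more). RPB7 has 2 points for its 2 matches. Filled points with a match lie between 102 and 297 bases, and RGR1 and SPT15 are the filled points without one.

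Many yeast genes share their upstream region with a gene that runs the other way, so the gene upstream of each member was read from the same fit. Of the 11 genes that fell, 7 have a divergent neighbour, and at 20 min 4 of these neighbours were called lower and 1 higher. Of the 25 divergent neighbours tested next to the 40 other members, 1 was lower (ATP16, beside MED2) and 1 higher (VMA21, beside SRB5), both named after their values were seen. Over all features 8.65% were lower and 0.629% higher at that time. At 90 min 3 of the 7 were lower and 1 higher, and of the 25 there were 2 lower and 3 higher, against 11.3% and 6.26% of all features. HRT1, which encodes a ubiquitin ligase subunit and starts 280 bases from MED7, had 27.4, 23.2 and 22.0 CPM at 0 min and 9.40, 12.2 and 12.2 at 20 min, without overlap. Its log2 fold change was -1.10 ± 0.16 (edgeR adjusted p = 1.54e-06) beside -1.86 for MED7. MRP20, a mitochondrial ribosomal protein gene next to RPB7, had -0.68 ± 0.14 (0.000389) at a time when RPB7 itself was not called. RNA1, the GTPase activator of nuclear transport next to TAF9, had -0.59 ± 0.09 (1.95e-06) at 20 min and -0.83 at 90 min, when TAF9 was no longer called. LAM6, a sterol transfer gene next to RGR1, had -0.60 ± 0.10 (4.06e-05) at 20 min and was not called at 90 min (-0.32).

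SPT15 and its neighbour moved in opposite directions. SCC4, which encodes a loader of cohesin and starts 460 bases from SPT15, had 66.4, 52.5 and 53.9 CPM at 0 min, 130, 120 and 137 at 20 min and 135, 148 and 158 at 90 min. The groups were far apart, and SCC4 in WT stayed between 50.0 and 58.4 CPM in all 6 libraries. Its log2 fold change was 1.16 ± 0.10 at 20 min (edgeR adjusted p = 5.66e-11) and 1.35 ± 0.10 at 90 min (1.72e-12), with an interaction of 1.45 ± 0.14 (1.52e-09), while SPT15 had -0.88 and -1.003. PZF1, encoding TFIIIA and divergent from RPO26, had 0.51 ± 0.09 at 20 min (8.29e-05) and was under the fold limit. The features were extended to mapped transcription starts by the authors, so divergent features may come closer than the coding sequences do.

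**Figure D5:**
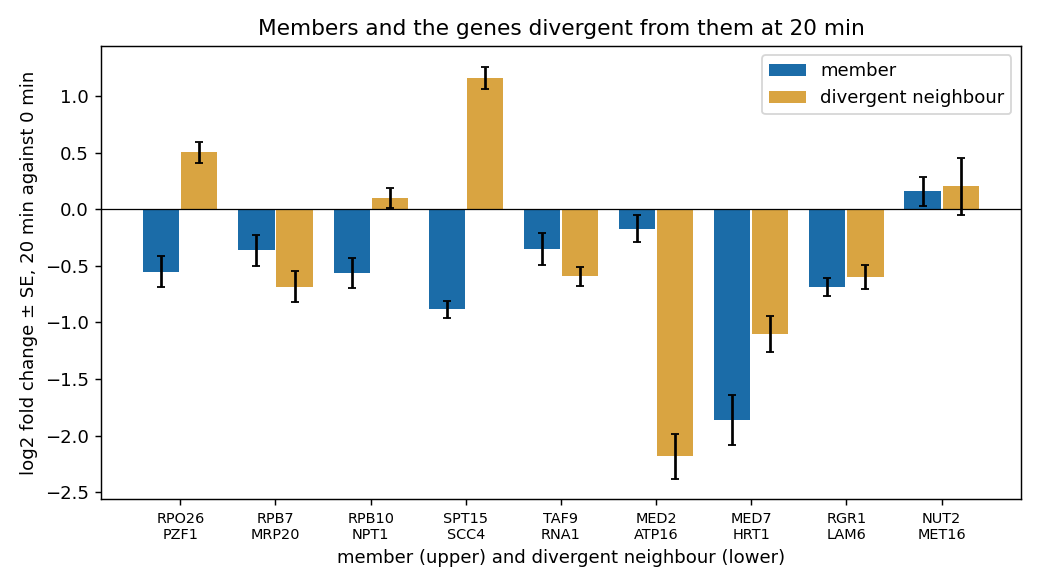
Log2 fold change at 20 min against 0 min (bars from 0, with SE) of members (blue) and of the gene divergent from each (yellow), for the members that fell and have such a neighbour and for MED2 and NUT2. Both bars point down for RPB7, TAF9, MED7 and RGR1 with their neighbours, SPT15 and SCC4 point in opposite directions, and ATP16 fell beside a MED2 that was not called.

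Other genes of the same pathway were read from lists. Of 27 genes for other Pol II factors (general factors, elongation and assembly factors), 6 were lower and 0 higher at 20 min, against 8.65% and 0.629% of all features, with a median log2 fold change of -0.0371. The 5 with the lowest adjusted p at 20 min were TFG1, the large subunit of TFIIF (-1.21 ± 0.09, edgeR adjusted p = 5.07e-13), TFA1, the large subunit of TFIIE (-0.94 ± 0.10, 2.47e-09), SPT4, an elongation factor (-3.34 ± 0.35, 3.47e-09), TAF14, found in TFIID and several other complexes (-1.41 ± 0.16, 1.79e-08), and TOA1, the large subunit of TFIIA (-1.23 ± 0.15, 6.17e-08). All 5 were also called lower by interaction. At 90 min 8 of the list were lower and 1 higher, against 11.3% and 6.26% of all features. The higher one was IWR1, an import factor for Pol II named after its values were seen (0.61 ± 0.12, edgeR adjusted p = 0.000205). Of 14 SAGA genes other than TAFs, 4 were lower and 0 higher at 20 min, against 8.65% and 0.629% of all features, with a median log2 fold change of 0.0135. These were GCN5, the histone acetyltransferase (-1.40 ± 0.10, edgeR adjusted p = 1.7e-12), NGG1 (-0.81 ± 0.10, 1.68e-07) and SGF29 (-1.36 ± 0.20, 2.43e-06) of the same acetylation module, and HFI1 (-0.71 ± 0.11, 2.85e-06), a core subunit. In WT 0 genes of either list were called by edgeR.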

How the data were processed

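The authors deposited whole-number counts of reads per feature, from paired-end reads aligned to sacCer3 with HISAT2 2.0.5, reduced to unique molecular identifiers, assigned with featureCounts (Subread 1.6.5) and summed over repeat sequencing runs. Use of strand in counting is not given in the sources used here. A second deposited table, holding the authors' log2 fold changes and adjusted p-values per comparison from DESeq2 1.10.1, was not used.

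The 39 libraries were grouped by the labels. In R 4.3.3, edgeR 4.0.16 (TMM factors, filterByExpr with a minimum count of 10, robust quasi-likelihood F-test, 1 coefficient per group over all libraries) tested 5722 of 6420 features. A call needed a Benjamini-Hochberg adjusted p under 0.01 and a fold change over 1.5. The study's methods use these limits too but require them at 20 and 30 min together, whereas here they were applied to each comparison singly. SE is the absolute log2 fold change over the square root of F. Rates were fitted with minpack.lm 1.2.4 as y = yf + (y0 - yf) exp(-k t), and taken as reliable if they converged, k lay between 0.01 and 1 per min, and pseudo-R2 reached 0.5. The fits were tested on simulated data. Totals of 3500982 to 11266408 counts limit the counting error, and replicates differed by more than that error. A count of 0 allows up to 3 counts, which covers counting error only.

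Same-numbered replicates of the tagged strain deviated together from their group means. Against 0 min, all 3 pairs had a correlation over 0.1 at every time except 50 min (lowest 0.085), with values up to 0.793. The numbers thus appear to pair the samples. This rests on the data, as the labels name no shared culture. The reported tests, SE and calls do not use this pairing, which enters only in the alternative with the replicate block. The decay fits and their SE likewise treat the tagged libraries as independent. It was not so in WT (0.061 to 0.124) or between strains (0.074 to 0.209). No replicate pair was as alike as sampling noise allows (lowest chi-square per degree of freedom 2.02).

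Alternatives were other size factors, no filter, DESeq2 1.42.0, a fit of only the groups compared, the replicate block, each library left out, and for rates the log2 scale and TMM-adjusted scaling. Named members are those called in any contrast, SPT15, RPO21, RPB2, RGR1 and SRB2, and the lowest and highest of each complex at 20 and 90 min. Of the other lists, up to 5 genes called at 20 and 30 min are named. Upstream neighbours were read for all members and named after their values were seen. The contrasts of 40 with 20 and of 90 with 60 min and the decay fits of 5 later members were added after seeing the data. The members and lists were chosen with earlier results of these data known. Positions and sequences come from the RefSeq annotation and genome of R64.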

Additional observations from a re-analysis of the deposited data

Results flagged for a closer look

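For 12 of the 51 genes the change over 90 min differed between the tagged strain and WT by a test of the difference itself (edgeR interaction term, adjusted p under 0.01 and over 1.5-fold). In log2 units the tagged-minus-WT difference was -2.241 for TAF4, -2.219 for MED7, -1.9 for RPC10, -1.479 for RPB8, -1.347 for RPB7, -1.263 for RPB10, -1.094 for SPT15, -1.075 for RPO26, -1.001 for RPB3 and -0.734 for RGR1. It was 0.733 for RPO21 and 0.69 for NUT2. For RPB7, RPB8, RPB10 and RPC10 all WT replicates at 90 min were above those at 0 min while all tagged replicates were below, though the WT changes did not pass the test. In WT 8 of the 51 genes lay wholly above at 90 min and 11 wholly below. The share over all features was not counted, so these counts do not set the members apart. RPO21 combines a lower level in WT with a higher one in the tagged strain, neither of which was called alone. With 3 replicates a group, single libraries were not tested for standing apart.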

How the results depend on the processing

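From 15 to 90 min the counts of members lower against 0 min stayed within 1.5 times the reported value under every alternative. At 10 min the count of 1 became 2 with RLE size factors, 3 with total counts, 3 without a filter, 3 with DESeq2, 2 with the replicate block, and 1 to 4 with 1 library left out, most without 0 min replicate 2. The block changed no call but those of RPC10 at 10 and 20 min. The 2 members higher by interaction became 1 in a fit of only the groups compared and 1 to 2 with 1 library left out. The 1 member lower at 40 against 20 min became 0 in that fit and 0 to 1 with 1 library left out. The median rate of 0.0855 per min became 0.0987 on the log2 scale. No result reversed.

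Counts over all features moved more. At 5 min the 29 lower features became 48 with DESeq2, 49 with the block and 0 in a fit of only the groups compared, and 0 higher became at most 4. In that last fit the 36, 72, 85, 152, 157, 271 and 358 higher features at 20 to 90 min became 22, 28, 35, 56, 63, 125 and 162, and WT had 7 lower and 26 higher in place of 0. With the block those at 20 to 50 min became 59, 139, 156 and 244, and 161 higher by interaction became 246. The 14 higher at 10 min became 7 with total counts and 8 without a filter or in the fit of only the groups compared. Between strains, 16 lower became 10 with total counts, 33 with DESeq2 and 37 with the block, and 14 higher became 8 in the fit of only the groups compared and 34 with the block. At 40 against 20 min, 27 lower and 2 higher became 0 in that fit. At 90 against 60 min, 5 lower and 8 higher became 13 and 42 with DESeq2, 20 and 45 with the block, and 0 in that fit. The cause was not tested. At the lowest levels, 23 counts in a library, small changes were not detectable.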

Other observations

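Next to members that did not fall, 1 divergent neighbour was called lower at 20 min. ATP16, which encodes a subunit of the mitochondrial ATP synthase and starts 719 bases from MED2, had 46.9, 51.6 and 51.5 CPM at 0 min and 10.9, 11.8 and 10.2 at 20 min, without overlap (log2 fold change -2.18 ± 0.20, edgeR adjusted p = 2.3e-10). MED2, a Mediator tail subunit named after its values were seen, had 196, 148 and 177 CPM at 0 min and 153, 143 and 166 at 20 min, which overlap (-0.17). MET16, a gene of sulfate assimilation divergent from NUT2, had 41.2, 35.3 and 43.6 CPM at 0 min and 70.8, 144 and 89.0 at 90 min, when NUT2 was also higher (1.35 ± 0.25, adjusted p = 7.85e-05). The replicates of MET16 at 90 min spread widely. Its interaction with strain did not pass the test (1.096 ± 0.36, adjusted p = 0.0288).

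Among tandem neighbours, ISU2, an iron-sulfur scaffold gene upstream of RPB8, was called higher at 90 min (0.79 ± 0.13, edgeR adjusted p = 7.2e-06) and DSE2, a daughter-cell wall gene upstream of RPC10, lower (-0.88 ± 0.20, 0.000726). TIM44 upstream of RPB3 and MVP1 upstream of TAF4 were called at none of the 20, 30 and 90 min times, with log2 fold changes from -0.09 to 0.03. Beside members that did not fall, the tandem neighbours ATG40 (RPB2, 1.54, adjusted p = 0.000324) and MRX11 (SSN3, 1.0005, 0.000583) were called higher at 90 min and PIB2 (PGD1, -0.78, 0.000124) lower. Divergent neighbours called at 90 min beside such members were, besides ATP16 and MET16, MKC7 (TAF12, -0.83, 0.00187) lower and MNP1 (RPB9, 0.59, 0.00162) and RET3 (TAF3, 0.67, 0.000135) higher. These neighbours were named after their values were seen.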
